A study of Citrus sinensis with 10 samples.

Results

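The fruit of Hong Anliu, a red-fleshed sweet orange (Citrus sinensis), was followed through development by comparing its RNA at 120, 150, 170, 190 and 220 days after flowering. The samples were chosen as the dye channel that held the mutant's RNA on each array of the series, Cy5 on the first array of a day and Cy3 on the second, which gave 10 of the 20 channels. Hong Anliu arose from Anliu, its orange-fleshed wild type, as a bud mutant, that is, a changed shoot that was propagated by grafting, so the 2 genotypes share their background apart from the change in the bud. The other 10 channels held RNA of Anliu fruit of the same 5 days, and they enter here where a change in the mutant is set against its wild type. Collections ran from August to December, per the series' design text, and the labels name fruit as the source without saying which tissue was taken or whether several fruits or trees were pooled. The genetic change behind the mutant is not given in the labels.

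Citrus fruit ripens without the burst of ethylene and respiration that drives ripening in tomato or banana. Over the months before harvest the juice sacs enlarge and store sugars, the organic acids (mainly citric acid) decline, chlorophyll is lost from the peel, and carotenoids, the yellow to red plastid pigments, build up. Hong Anliu is known for storing lycopene, the red carotenoid that is the substrate of the lycopene cyclases, in its flesh, where orange-fleshed sweet oranges convert it to later carotenoids such as violaxanthin. The comparison of the mutant's days with each other asks how its fruit transcripts changed over these months. RNA of fruit is bulk RNA, so fewer cells of a type and less RNA per cell cannot be told apart in any value below.

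The array was a spotted cDNA array, on which pieces of cloned fruit cDNA were printed and hybridised with the labelled RNA of both genotypes at once. It carried 5856 clones from 61 plates with 3 spots each, and 5847 clones were kept after the filter on dim clones, of which 5805 were above the blank spots in all 10 mutant channels. Clones go by their place in the plates (50.A.2 is plate 50, row A, column 2). The files at hand pair no clone with a gene or a sequence, and 0 clone names matched the gene table, so neither the genes of the carotenoid pathway nor any other gene list could be looked up and no sequence is shown. Each clone is described by its level, the log2 of the background-subtracted intensity after the 10 mutant channels were brought to the same distribution (quantile normalization). A level therefore tells how a clone stands among all clones of that day, and levels of different clones are not compared.

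The days differed in signal before they were scaled. The median mutant intensity over clone spots was lowest on the Cy5 array of 120 days, at 1036, and highest on the Cy3 array of 220 days, at 3959. The control spots Y1 to Y4 ran the other way: they lay above the median clone by 4.70 and 4.32 (log2, Cy5 and Cy3) at 120 days, by 3.49 and 3.50 at 150 days, by 3.01 and 3.13 at 170 days, by 2.68 and 2.67 at 190 days and by 2.28 and 2.01 at 220 days. What these controls are meant to hold is not known from the files. After quantile normalization the median clone shifted by -0.16 (log2) at 220 against 120 days, and with each channel centred on Y1 to Y4 it shifted by 1.97. Every statement below that a clone was higher or lower is therefore relative to the other clones of the day, and directions turn for many clones if the controls are taken as constant.

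The labels give 1 code per genotype and day, which was taken as 1 RNA extract hybridised with both dye orientations. The arrays of a day thus show how well a hybridisation repeats and not how fruits differ, and a p-value across days measures the spread between these 5 collections. The mutant channels of a day correlated across 5844 clones at r = 0.938 to 0.982 between dyes. The median SD between days was 0.477 (log2) per clone, against a residual SD between dyes of 0.225. For 2959 of the 5844 clones (50.6%) the SD between days exceeded the residual SD by a factor of more than 2. In both dyes, 3094 clones (52.9%) had a range of at least 2-fold over the 5 days, 200 had a range of at least 8-fold, and 1247 (21.3%) stayed within 2-fold.

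The 5 days did not line up in the order of collection. The mutant fruit of 170 days resembled that of 120 days more than that of the neighbouring days: the 4 pairs of channels of 120 and 170 days correlated at r = 0.903 to 0.923, against 0.786 to 0.809 for 150 and 170 days and 0.825 to 0.841 for 170 and 190 days. The channels of 150 and 190 days correlated at 0.913 to 0.924, those of 150 and 220 days at 0.895 to 0.909 and those of 190 and 220 days at 0.940 to 0.943. The channels of 120 and 220 days correlated at 0.775 to 0.788, those of 120 and 190 days at 0.788 to 0.812, those of 170 and 220 days at 0.801 to 0.819 and those of 120 and 150 days at 0.807 to 0.826. These correlations are across clones of the same arrays, which share probes and are not independent, and they describe these 10 channels without a test. A constant shift of a channel leaves them as they are, so they do not rest on the control spots.

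**Figure D1:**
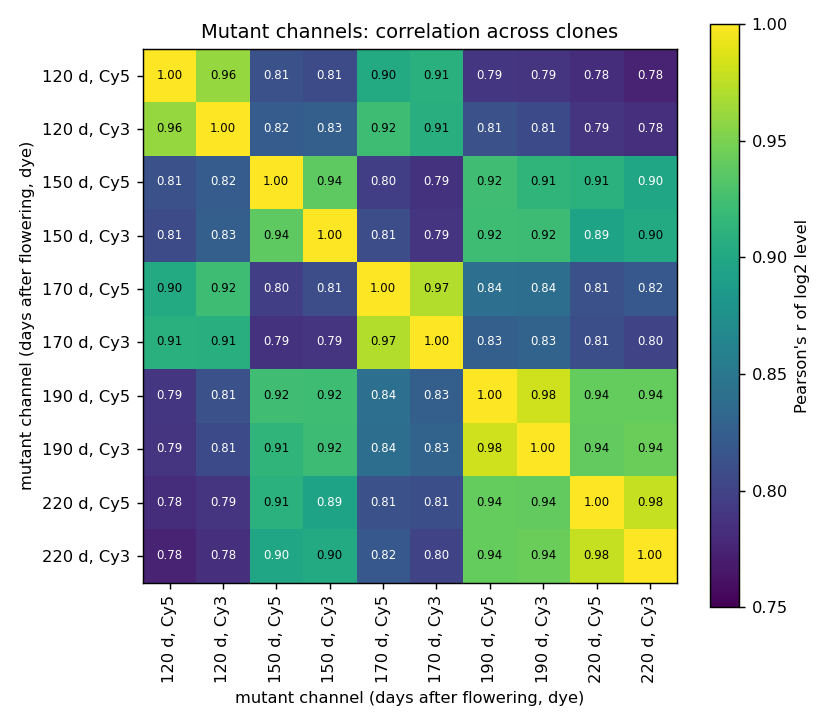
Pearson's correlation of the log2 level between every 2 of the 10 mutant channels, across clones, with the channels in order of days after flowering and dye on both axes and the value in each cell (colour scale 0.75 to 1). The channels of 170 days show values of 0.90 to 0.92 with those of 120 days and 0.79 to 0.84 with those of 150, 190 and 220 days.

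The wild-type channels of the same arrays showed another order. Averaged over dyes, the mutant of 170 days correlated at 0.927 with the mutant of 120 days, at 0.915 with the wild type of 120 days and at 0.829 with the wild type of 170 days, although the last pair had shared its arrays. The wild type of 170 days correlated with the mutant of 190 days at 0.941, with the mutant of 220 days at 0.928 and with the mutant of 150 days at 0.913. With the wild type of 190 days it correlated at 0.923. The mutant collection of 170 days thus stood apart from its neighbours in both dyes. With 1 extract per genotype and day, a state of the fruit at 170 days, an exchange of the 2 genotypes in the extracts of that day and another property of these extracts cannot be told apart. The mutant at 170 days therefore means the channel labelled so, and the main results that rest on it are given beside a comparison without that day.

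The number of clones that differed by at least 2-fold in both dyes, Cy5 set against Cy5 and Cy3 against Cy3, followed the same pattern. There is no test of these counts, because each day has 1 extract. At 150 against 120 days 640 clones were higher (10.9% of the 5846 compared) and 311 lower (5.32%). At 170 against 150 days 449 were higher (7.68% of 5847) and 711 lower (12.2%). At 190 against 170 days 738 were higher (12.6% of 5846) and 524 lower (8.96%). The last step was much smaller: at 220 against 190 days 81 clones were higher (1.39%) and 89 lower (1.52%), although centred on Y1 to Y4 these were 441 and 3, and those at 150 against 120 days 1610 and 14. Over the whole period, at 220 against 120 days, 792 were higher (13.5%) and 629 lower (10.8%). Clones that passed 2-fold in opposite directions in the 2 dyes numbered 3 to 22 in any pair of days.

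Without 170 days the middle of the series was quiet. At 190 against 150 days 91 clones were higher and 121 lower, fewer in each direction than at the step on either side of 170 days. At 170 against 120 days 172 were higher and 180 lower. At 220 against 150 days 287 were higher and 166 lower, and at 220 against 170 days 813 were higher and 367 lower. The wild type had fewer such clones at the first 3 steps and more at the last, with 203 higher and 131 lower at 150 against 120 days, 307 and 149 at 170 against 150 days, 234 and 233 at 190 against 170 days, and 241 and 379 at 220 against 190 days. Whether the genotypes differ in these counts was not tested. Which side was larger depended on the scale for the whole period: of the clones 2-fold different at 220 against 120 days 55.7% were higher, against 38.6% with channels scaled to the same median and 4706 higher with 0 lower when centred on Y1 to Y4. The last step was the smallest of the 4 on each of these scales.

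**Figure D2:**
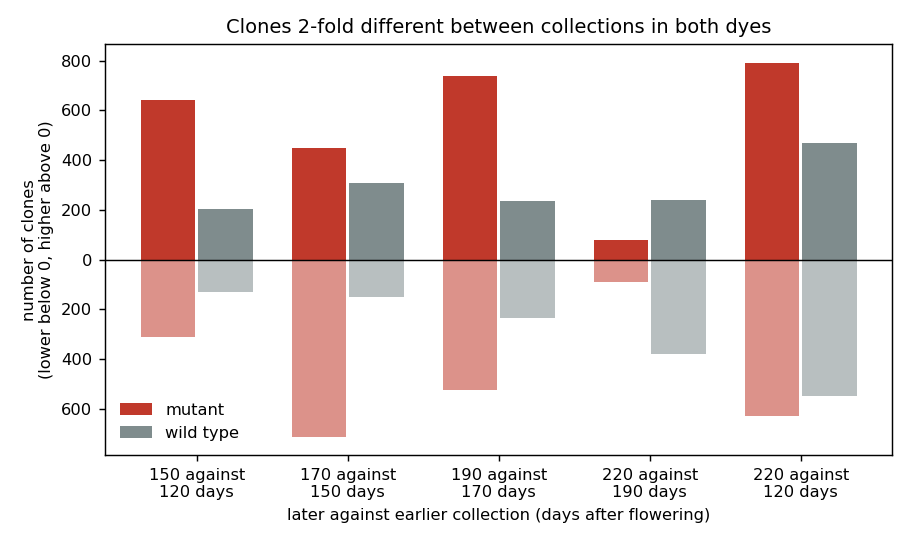
Number of clones 2-fold different in the same direction in both dyes, for the 4 successive steps and for 220 against 120 days, with clones higher at the later day above 0 and lower clones below 0, for the mutant (red) and the wild type (grey). In the mutant 951, 1160 and 1262 clones differed at the first 3 steps and 170 at the last, against 1421 for the whole period.

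Some pairs of steps share no array, so that a likeness between them does not come from a common channel. The change at 150 against 120 days and that at 190 against 170 days are such a pair. Across 5845 mutant clones they correlated at r = 0.759, whereas the same steps of the wild type correlated at -0.04. Of the 640 clones higher at 150 against 120 days, 518 (80.9%) were also higher at 190 against 170 days, where 12.6% of all clones were. These 518 were 70.2% of the 738 clones higher at the later step. Of the 311 lower clones 105 (33.8%) were also lower at the later step, where 8.96% of all clones were, and the 524 lower there include them. In opposite directions at the 2 steps were 1 clone lower and then higher, and 0 clones higher and then lower. In the wild type 20 of the 203 higher clones (9.85%) were also higher at the later step, where 234 of all 5845 clones were. Of its 131 lower clones 6 were also lower at the later step, where 233 of all clones were. The wild type thus also had a larger share of higher clones in this overlap than among all clones, though far below that of the mutant. The first step did not resemble the last one, which shares no array with it either: the changes at 150 against 120 days and at 220 against 190 days correlated at -0.02 in the mutant.

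Pairs that take 170 days differently gave lower correlations in the mutant. The changes at 170 against 120 days and at 190 against 150 days correlated at 0.433 in the mutant and at 0.326 in the wild type. In the mutant 29 clones were higher in both (16.9% of 172 and 31.9% of 91). Of all clones 2.94% were higher at 170 against 120 days and 1.56% at 190 against 150 days. Lower in both were 22 (12.2% of 180 and 18.2% of 121), where 3.08% and 2.07% of all clones were lower. The change at 220 against 120 days correlated with that at 190 against 150 days at 0.265 in the mutant and at 0.280 in the wild type. In this pair 170 days takes no part, and the genotypes had similar values.

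**Figure D3:**
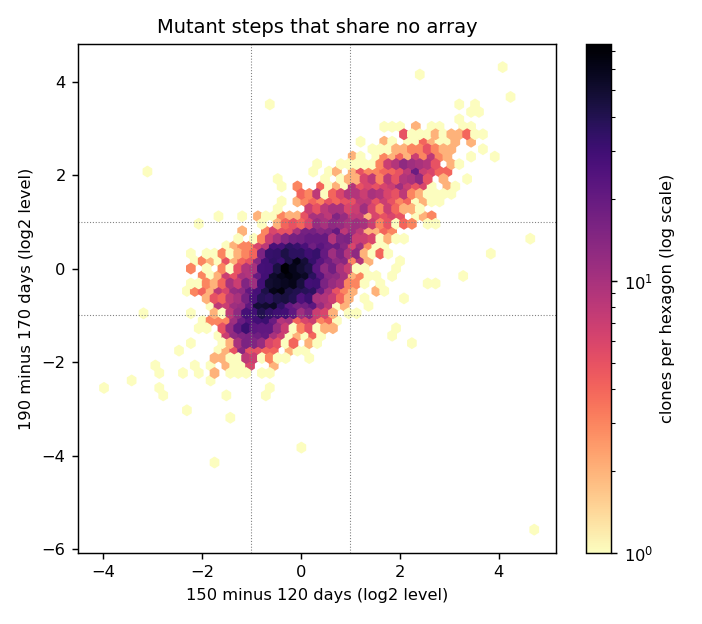
Change of each mutant clone at 150 against 120 days (horizontal axis, log2) and at 190 against 170 days (vertical axis, log2), as the mean of both dyes, with the number of clones per hexagon on a log colour scale and dotted lines at a 2-fold change. The clones lie along the diagonal (r = 0.759, 5845 clones), and 518 were 2-fold higher at both steps in both dyes.

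Over all 4 steps most clones never passed 2-fold in both dyes: 3856 of 5845 (66.0%) showed no such step. The most frequent course among the others was higher at 150 days, lower at 170 days and higher at 190 days, with no 2-fold step at 220 days, and 410 clones (7.01%) followed it. The mirror course, lower, higher and lower again, was followed by 66 clones (1.13%). Since neighbouring steps share the day between them, a single high or low day enters both of its steps, and these courses are descriptions. Next in number were 277 clones with a single lower step at 190 days, 184 with a single higher step at 170 days and 130 with both of these.

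In the 410 clones the level relative to each clone's own mean over the 5 days had medians of -1.22, 0.86, -1.24, 0.75 and 0.95 from 120 to 220 days (SD over clones 0.513, 0.384, 0.411, 0.353 and 0.402). All 5 days entered the choice of the clones, 220 days through the lack of a 2-fold last step, so these mutant values describe the choice. In the wild type, which the choice did not use, the same clones had medians of -1.01, -0.17, 0.88, 0.24 and 0.12 at the 5 days. There 352 of the 410 (85.9%) were higher at 170 against 120 days, where 11.5% of all clones were, and 0 were higher and 57 (13.9%) lower at 190 against 170 days, where 234 and 233 of the 5846 clones were. The wild type of these clones thus had its highest median at 170 days. The mutant, low there by the choice of the clones, had nearly the same median at 120 days. Without 170 days, many of these clones were higher after 120 days in both genotypes. At 190 against 120 days 345 of the 410 were higher for the mutant and 221 (53.9%) for the wild type, with 0 lower. At 220 against 120 days 348 and 196 (47.8%) were higher, with 0 and 1 lower. At 190 against 150 days 2 were higher and 20 lower for the mutant, and 32 and 1 for the wild type.

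The 66 clones of the mirror course had mutant medians of 0.67, -0.77, 1.01, -0.53 and -0.34 from 120 to 220 days. Their wild-type medians were 0.49, -0.15, -0.34, 0.23 and 0.11. The 410 clones came from all 61 plates, with 278 in plates 1 to 29 and 132 in plates 30 to 61. The 66 came from 33 plates, with 22 in plates 1 to 29 and 44 in plates 30 to 61. Of all clones compared at 150 against 120 days, 2782 lay in plates 1 to 29 and 3064 in plates 30 to 61. The count of 410 was 405 with channels scaled to the same median and 321 centred on Y1 to Y4, whereas the 66 became 89 and 8.

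**Figure D4:**
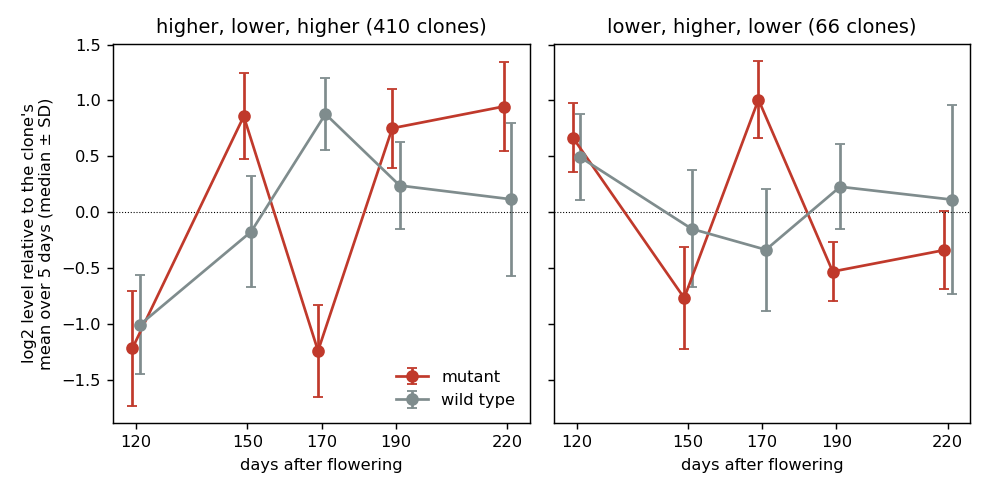
Log2 level relative to the clone's mean over the 5 days against days after flowering, as the median over clones with bars of 1 SD over clones, for the mutant (red) and the wild type (grey), in the 410 clones that were higher, lower and higher at the first 3 mutant steps (left) and in the 66 with the mirror course (right). In the 410 clones the mutant stood at -1.24 and the wild type at 0.88 at 170 days.

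Single clones show how large these changes were. The rule for naming took the 2 clones with the largest changes in each direction at each step, among clones above the blank spots in all 10 mutant channels and below the top of the scale. Clone 9.D.3 stood at 8.64 and 9.25 (Cy5 and Cy3) at 120 days, 13.05 and 13.43 at 150 days, 9.21 and 8.89 at 170 days, 12.85 and 12.70 at 190 days and 11.82 and 12.81 at 220 days. It was thus high at 150, 190 and 220 days and low at 120 and 170 days in both dyes, with no overlap between those levels. Its change at 150 against 120 days was 4.29 (log2). In the wild type its mean over dyes was 9.85, 11.49, 13.07, 12.55 and 12.61 from 120 to 220 days.

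Clones 10.D.4, 9.A.5, 14.A.1 and 21.A.9, named for the largest changes at 170 against 150 or at 190 against 170 days, shared the low level at 120 and 170 days. Clone 10.D.4 stood at 10.26 and 10.99 at 120 days, 14.35 and 13.97 at 150 days, 8.96 and 9.11 at 170 days, 12.59 and 12.52 at 190 days and 13.69 and 13.27 at 220 days. Its change of -5.13 at 170 against 150 days was the lowest at that step, and in 9.A.5 the change was -4.61, with 8.51 and 7.83 at 170 days against 12.81 and 12.75 at 150 days. Clone 14.A.1 had 13.93 and 13.90 at 190 days against 9.75 and 9.45 at 170 days, a change of 4.31. Clone 21.A.9 had 13.86 and 13.93 at 190 days against 10.01 and 9.47 at 170 days, a change of 4.16. At 150 days the dyes of 21.A.9 differed, with 13.65 in Cy5 and 10.96 in Cy3, so its earlier steps are poorly measured. With 170 days left out, at 190 against 150 days, these clones changed by -1.61 in 10.D.4, -1.24 in 9.A.5, 0.03 in 14.A.1 and 1.59 in 21.A.9.

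Clones 13.C.3 and 23.H.1 followed the mirror course, with the lowest level at 150 days. In 13.C.3 the level was 11.64 and 11.66 at 120 days, 7.53 and 7.66 at 150 days, 11.84 and 12.18 at 170 days, 9.57 and 9.28 at 190 days and 9.81 and 9.55 at 220 days. The change was -4.06 at 150 against 120 days and 4.41 at 170 against 150 days. In 23.H.1 the level was 9.95 and 10.60 at 150 days against 13.73 and 13.75 at 120 days, a change of -3.47, and it stood at 14.60 and 14.49 at 170 days, 4.27 above 150 days. Both clones stood below their level of 120 days at 220 days, with changes of -1.97 in 13.C.3 and -1.33 in 23.H.1. At 190 against 150 days, without 170 days, both changed by 1.83.

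The other clones named for the steps had less regular courses. Clone 45.D.4 had the largest positive change at 150 against 120 days, 4.72, but at 120 days its intensity was 6 and 57.3 against limits of 4 and 47.65 from the blank spots, so its early level is barely measured. It stood at 10.03 and 9.31 at 220 days and at 8.75 and 8.57 at 150 days, and its change over the whole period was 5.73. Clone 2.B.12 stood at 9.70 and 9.58 at 190 days against 12.84 and 12.76 at 170 days, a change of -3.17, and at 190 against 150 days its change was -2.49. In 21.G.4 the mean change at 190 against 170 days was -4.14, but the dyes gave -6.73 in Cy5 and -1.56 in Cy3. On the array with the lower mutant value the wild type was low as well, at 6.12 against 12.74 on the other array of 190 days. With spots that lack the authors' intensity class left out, the mutant change was -1.44, so the size of this fall is poorly measured.

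At the last step the changes were smaller also in single clones. Clone 52.H.7, the highest, stood at 9.06 and 8.24 at 220 days against 6.42 and 5.94 at 190 days, a change of 2.47. This clone was dim at 190 days, with an intensity of 129.7 and 63.7 against medians of 2912 and 2855 over clone spots. The limits from the blank spots were 8 and 39.3. In clone 7.F.10 the levels were 11.23 and 11.37 at 220 days against 9.18 and 9.38 at 190 days, a change of 2.02. Clone 9.C.10 was lowest, with 10.72 and 10.66 at 220 days against 12.41 and 12.38 at 190 days, a change of -1.71. Its mutant means were 9.40, 11.57, 11.16, 12.40 and 10.69 from 120 to 220 days, while its wild-type means lay between 8.57 and 9.56. At 220 days its wild type stood at 10.18 and 8.94 on the 2 arrays. Clone 57.G.9 changed by -1.71 at this step, with dyes at -1.07 and -2.34.

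Over the whole period, clones 27.A.12 and 53.A.3 were named beside 45.D.4 and 47.A.7. Clone 27.A.12 stood at 14.01 and 14.24 at 220 days against 9.97 and 9.96 at 120 days, a change of 4.16, and was 13.12 and 13.58 at 150 days, 11.36 and 11.17 at 170 days and 14.09 and 14.12 at 190 days in between. Its wild-type means were 11.41, 11.27, 13.94, 13.11 and 11.92 from 120 to 220 days. Clone 53.A.3 stood at 9.38 and 8.87 at 220 days against 12.09 and 12.28 at 120 days, a change of -3.06, with mutant means of 10.89, 11.39 and 9.90 at 150, 170 and 190 days. Centred on Y1 to Y4 its change over the period was -0.99.

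A day that stood above or below all other 4 days by at least 2-fold in both dyes was rare. Of 5845 clones 23 had such a peak, 7 at 120 days, 2 at 150, 10 at 170, 0 at 190 and 4 at 220 days. Troughs were found in 120 clones, 50 at 120 days, 11 at 150, 52 at 170, 3 at 190 and 4 at 220 days. Troughs thus lay mainly at 120 and 170 days. Without 170 days 94 clones had a peak and 496 a trough, and without 120 days 125 and 536, although fewer days make the condition easier to meet. Clone 26.F.2 had the largest peak margin at 170 days, 1.57 above its next day, with 12.84 and 12.70 at 120 days, 11.47 and 11.86 at 150 days, 14.59 and 14.59 at 170 days, 12.52 and 13.04 at 190 days and 13.01 and 12.84 at 220 days. Its wild type was lowest on that day, with means of 14.56, 13.62, 12.73, 13.94 and 14.52 from 120 to 220 days. The trough with the largest margin at 170 days was that of 1.G.8, 1.91 below its next day, with 9.98 and 10.24 at 170 days and 12.01 to 14.09 on the other days. Centred on Y1 to Y4 both margins were below 2-fold, at 0.80 in 26.F.2 and -0.47 in 1.G.8.

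Of the other days, clone 41.E.12 peaked at 120 days with 9.69 and 10.37, 2.24 above the next day, and lay between 6.87 and 8.18 from 150 days on. Clone 1.H.10 peaked at 150 days with 12.69 and 11.89, by a margin of 1.68, and the dim clone 52.H.7 at 220 days by 1.27. Clone 15.G.11 had the largest trough margin at 220 days, 1.54, with 10.25 and 10.44 at 220 days and mutant means of 13.05, 12.58, 12.46 and 11.89 on the 4 days before, all above both dyes of 220 days. Clone 22.B.9 at 190 days, 50.G.3 at 150 days (-1.96) and 21.G.4 at 190 days (-2.40) had the largest mean margins of their days but did not reach 2-fold in both dyes, and the trough of 45.D.4 at 120 days (-4.72) rests on the dim values given above. Centred on Y1 to Y4 the margins of 41.E.12, 1.H.10 and 15.G.11 also dropped below 2-fold, at 0.80, 0.50 and -0.60. That of 52.H.7 was 0.67 with channels scaled to the same median and grew when centred on Y1 to Y4.

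**Figure D5:**
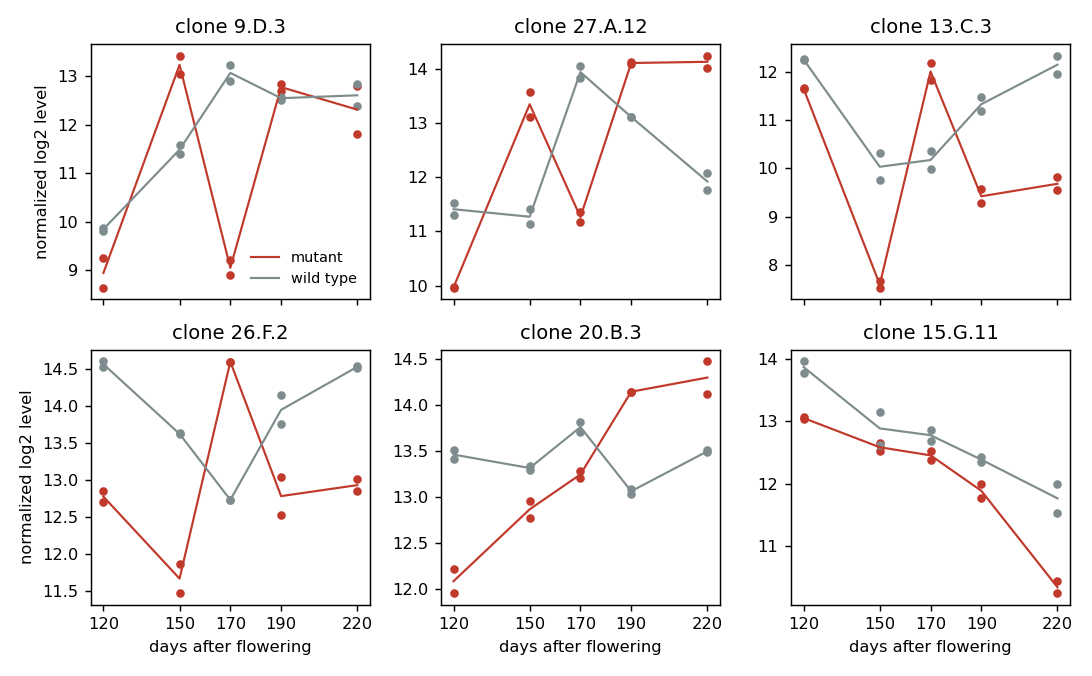
Normalized log2 level against days after flowering in 6 of the named clones, with 1 point per dye and lines through the mean of both dyes, for the mutant (red) and the wild type (grey); vertical scales differ between panels. In 9.D.3 and 27.A.12 the mutant is low at 120 and 170 days, in 13.C.3 it is lowest at 150 days, in 26.F.2 it peaks at 170 days, and 20.B.3 and 15.G.11 move one way in time.

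A steady change with time was tested by the slope of the level on days. No mutant clone passed: 0 of 5845 (0%) were under an adjusted p of 0.05 in limma with 3 residual degrees of freedom, and the smallest adjusted p was 0.317. At an unadjusted p under 0.05, 397 clones had a rising and 389 a falling slope, together 13.4% of the clones where 5% would be the nominal share. In the wild type 0 of 5845 passed in limma (smallest adjusted p = 0.0752), with 361 rising and 471 falling at an unadjusted p under 0.05. The difference of the slopes, mutant minus wild type, passed in 0 of 5844 clones in limma (smallest adjusted p = 0.608), with 249 positive and 124 negative at an unadjusted p under 0.05. So no slope can be called particular to the mutant.

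Without 170 days the fit called 0 mutant clones as well (smallest adjusted p in limma 0.178), with 565 rising and 503 falling at an unadjusted p under 0.05. The difference between the genotypes then also gave 0 (smallest adjusted p in limma 0.145), with 404 positive and 354 negative unadjusted. Without 120 days the unadjusted count in the mutant was 120, without 150 days 1133 (644 rising, 489 falling), without 190 days 475 and without 220 days 247. Centred on Y1 to Y4 the test called 4130 mutant clones in limma, all rising, on a scale where the median clone itself shifted by 1.97 over the period.

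Few clones changed in the same direction at every step. In both dyes 16 mutant clones were higher at the later day of each of the 4 steps, 15 of them by at least 2-fold in all, and 14 were lower at each step, 9 of them by at least 2-fold. Leaving out 170 days, 167 clones were ordered upwards and 241 downwards, a condition that fewer days make easier to meet. The clones with the smallest p of the slope had no adjusted p below 0.317, and their values are descriptions. Clone 20.B.3 stood at 11.95 and 12.21 at 120 days, 12.77 and 12.95 at 150 days, 13.28 and 13.20 at 170 days, 14.14 and 14.14 at 190 days and 14.11 and 14.47 at 220 days, a slope of 2.35 per 100 days (SE 0.45). In the wild type its slope was -0.06 (SE 0.49), and the difference of 2.40 did not pass (adjusted p = 0.608 in limma).

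Clone 5.H.8 had a slope of 2.66 per 100 days (SE 0.52), with 10.36 and 10.02 at 120 days, 11.98 and 11.33 at 150 days, 12.06 and 11.81 at 170 days, 12.80 and 12.60 at 190 days and 12.76 and 12.97 at 220 days. Clone 50.A.2 had the steepest rising slope of these, 3.03 (SE 0.46), but its dyes differed at 120 days (7.85 and 4.57) and 150 days (6.12 and 8.66), and with spots that lack the authors' intensity class left out its slope was 0.62. Among the falling slopes 47.A.7 stood at 9.48 and 9.89 at 120 days, 9.46 and 8.54 at 150 days, 8.03 and 8.23 at 170 days, 7.70 and 8.24 at 190 days and 7.47 and 5.77 at 220 days, a slope of -3.00 (SE 0.45). Its levels at 170 and 190 days overlapped, and its dyes were furthest apart at 220 days.

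Clone 47.B.1 had a slope of -2.47 (SE 0.48), with mutant means of 9.99, 9.47, 8.32, 8.41 and 7.54 from 120 to 220 days and wild-type means between 10.11 and 12.33. Clone 42.A.5 had a slope of -2.38 (SE 0.45), with mutant means of 10.44, 9.89, 9.60, 8.61 and 8.18. The size of these falling slopes depended on the scale: centred on Y1 to Y4 they were -0.79 in 47.A.7, -0.44 in 47.B.1 and -0.35 in 42.A.5, and the rising ones 4.78 in 50.A.2, 4.23 in 20.B.3 and 4.87 in 5.H.8. The 3 clones whose mutant channels followed 47.A.7 most closely were 2.F.5 (r = 0.976 over the 10 channels), 10.G.9 (0.952) and 8.F.1 (0.944). They moved far less, with slopes of -0.72, -0.91 and -1.05 per 100 days. For 50.A.2 they were 8.A.1 (0.861), 50.F.1 (0.853) and 29.C.7 (0.839). Their slopes were 0.32, 0.59 and 1.24 per 100 days, against 3.03 in 50.A.2, whose dyes differed at 120 and 150 days.

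The changes were spread unevenly over the array. Plates 1 to 29 and plates 30 to 61 were compared because earlier results of these data had shown a difference between them. At 150 against 120 days 14.4% of the clones in plates 1 to 29 were higher and 2.12% lower, against 7.83% and 8.22% in plates 30 to 61, and the median changes were 0.05 and -0.38. At 190 against 170 days 16.8% were higher and 6.94% lower in plates 1 to 29, against 8.84% and 10.8% in plates 30 to 61. At 190 against 150 days, without 170 days, 1.29% were higher and 2.16% lower in plates 1 to 29, against 1.80% and 1.99% in plates 30 to 61. At 220 against 190 days the shares were 0.90% and 1.19% in plates 1 to 29 and 1.83% and 1.83% in plates 30 to 61. What the plates hold is not known from the files, and whether cDNA library, printing or fruit sets this difference was not tested. With the clones split by mean level into 4 equal classes, the third class from the dimmest had the largest share of higher clones at 150 against 120 days (17.9%), and the dimmest class the smallest (4.79%).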

How the data were processed

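Per the file headers, the authors deposited a Cy5 and a Cy3 intensity for each spot; values below 0 and blank spots near 0 show that background had been subtracted. Scanner and software: not given in the sources used here. Of 19152 spots per array 17568 were clone spots and 1584 controls. Intensities at or below 0 (4 to 27 mutant clone spots per channel) were left out, log2 values were quantile normalized between the 10 mutant channels (wild type likewise), 3 spots were averaged per clone, and both arrays of a day were averaged to 1 replicate. A clone was kept above the 95th percentile of blank and solvent spots in at least 5 mutant channels. Spots at the top of the scale stayed in. The median SD of the 3 spots was 0.0643 to 0.149. The number of arrays limits precision.

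Slopes on days were fitted with limma 3.58.1 in R 4.3.3 (lmFit, eBayes, two-sided, Benjamini-Hochberg over all clones, threshold 0.05), tested on simulated data. Between 2 days a clone counted at a log2 difference of at least 1 in both dyes. Named clones were, above background throughout, the 3 slopes of smallest p in each direction, the 2 largest steps in each, the largest single-day margins, and the 3 clones most correlated with the first slope of each direction. Members, lists and tests were chosen with earlier results of these data known. The replicate number marks dye orientation: over 10 pairs of days, deviations of same-numbered channels correlated at -0.31 to 0.27, so the numbers pair no samples. Alternatives were other scalings, filters, spot summaries, fits, and leaving out a day or dye. The authors' ratio tables mix both genotypes and were not used here.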

Additional observations from a re-analysis of the deposited data

Results flagged for a closer look

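In 7 clones the mutant and the wild type moved in opposite directions in both dyes at the step for which the clone was named; none of these differences was tested, as each genotype has 1 extract per day. At 170 against 150 days clone 23.H.1 changed by 4.27 in the mutant and by -0.27 in the wild type, 10.D.4 by -5.13 and 0.84, and 9.A.5 by -4.61 and 0.37. At 190 against 170 days clone 14.A.1 changed by 4.31 in the mutant and by -0.69 in the wild type, and 21.A.9 by 4.16 and -0.81. These 5 rest on the collection of 170 days, and at 190 against 150 days the changes were 1.83 and 1.15 in 23.H.1, -1.61 and 0.33 in 10.D.4, -1.24 and 0.22 in 9.A.5, 0.03 and 0.39 in 14.A.1, and 1.59 and 1.85 in 21.A.9 (mutant and wild type). Over all 29 clones named for a slope, step or margin, opposite directions in both dyes were found in 6 at 150 against 120 days, 11 at 170 against 150 days, 20 at 190 against 170 days, 4 at 220 against 190 days and 4 at 220 against 120 days. These counts are not set beside the share of all clones, and no minimum size applied. Clone 23.H.1 counted with a wild-type change of -0.08 on 1 array at 170 against 150 days. Some of the clones were named for the same steps, so the counts describe the choice of clones. At 220 against 190 days clone 9.C.10 changed by -1.71 in the mutant and by 0.98 in the wild type, where the 2 arrays gave 1.43 and 0.54. Over the whole period 47.A.7 changed by -3.07 in the mutant, with its dyes at -2.01 and -4.13, and by 0.64 in the wild type.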

How the results depend on the processing

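With each channel centred on control spots Y1 to Y4, the slope test called 4130 clones in the mutant, 250 in the wild type and 5014 in their difference, and 2-fold clones numbered 1624 at 150 against 120 days (1610 higher, 14 lower), 1489 at 170 against 150 days (1075 higher, 414 lower), 1150 at 190 against 170 days (981 higher, 169 lower), 444 at 220 against 190 days (441 higher, 3 lower) and 4706 at 220 against 120 days, all higher. The change of 47.A.7 over the whole period was then -0.78, against -3.07. Peaks then numbered 203, troughs 907, clones that were lower, higher and lower 8, and clones higher at both 150 against 120 and 190 against 170 days 858. Scaling to the same median gave 35 peaks and, at 220 against 120 days, 639 higher and 1018 lower clones. It gave 307 rising and 765 falling mutant slopes at an unadjusted p under 0.05, and for the slope difference 198 positive and 368 negative.

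The wild-type slope test called 30 clones with classed spots only, 61 without a replicate block on all channels, the day being a random block, and 50 with the replicate block. Leaving out a dye or a day it called 0 to 207 (207 without 170 days, 2 without 220 days). The mutant slope test called 0 with the replicate block (smallest adjusted p in limma 0.108) and without it (0.0753). It also called 0 under each alternative other than Y1 to Y4.

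With 1 dye in place of both, 2-fold clones numbered 1542 to 1706 at 150 against 120 days, 1917 to 1943 at 170 against 150 days and 414 to 434 at 220 against 190 days, and the lower, higher and lower course 192 to 231, since the condition in both dyes was dropped. Leaving out a dye or a day gave 70 to 201 peaks and 148 to 536 troughs; fewer days ease the condition. The mean trough of 21.G.4 at 190 days turned to 0.32 with classed spots only and to 1.22 without replicate 1, against -6.02 without replicate 2. Of the values of named clones, 361 stayed within their spread or on their side of the threshold, 45 moved, 3 passed the threshold (slopes of 50.A.2, 20.B.3 and 5.H.8, centred on Y1 to Y4) and 2 turned. The spread was that between a clone's 2 dyes, and no slope passed the threshold in the main fit. A poorly measured clone or a shrinking slope could therefore count as having stayed. With classed spots only, the slope of 50.A.2 at 0.62 and the step of 21.G.4 at -1.44 were counted so. The alternatives for the courses and for the clones higher at both steps were added after seeing the data. Of the mutant clones 2-fold different between 2 days, 1 to 3 per pair of days were above the blank spots in neither dye on the dimmer side. Clones that missed this limit in only 1 dye were not counted.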
